A study of Mus musculus with 6 samples.

Results

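The genes described here are the normal mouse counterparts of the oncogene BCR-ABL and the adaptors its protein binds: Abl1, Abl2, Bcr, Grb2, Sos1, Gab2, Shc1, Crkl, Cbl and Dok1. They were chosen by name, as probe sets that carry 1 gene symbol equal to a member, and 10 of 10 were found among 19938 genes. Only Bcr had more than 1 such probe set, and the one with the higher mean over the 6 arrays was kept. In none of the 3 comparisons did a member pass the test over all genes. Among the alternative settings Shc1 did so once, on values as deposited, without added normalization between arrays. The widest mean differences were those of Shc1, lower by 0.59 on the log2 scale with BCR-ABL than with vector, and of Gab2, higher by 0.51.

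BCR-ABL is a fusion of BCR and ABL1 whose ABL tyrosine kinase is constantly active, and it drives chronic myeloid leukemia. A phosphorylated tyrosine in its BCR part is bound by Grb2, an adaptor that brings in Sos1, which loads RAS with GTP, and Gab2, a scaffold for the lipid kinase PI3K. Shc1 and Crkl are adaptors and substrates of the kinase, and phosphorylated Crkl is widely used as a readout of BCR-ABL activity. Cbl, a ubiquitin ligase, and Dok1, which recruits an inhibitor of RAS, are substrates known as brakes. These steps run through binding and phosphorylation, which an RNA array does not measure.

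Gene expression was measured on 6 Affymetrix whole-transcript arrays, 2 for each of 3 groups. Bone marrow of 5-fluorouracil-treated C57BL/6 (B6) mice, with wild type as genotype and 8 weeks as age in the labels, was transduced with retrovirus and transplanted into B6 recipients. The virus carried GFP alone (vector group), BCR-ABL and GFP (BCR-ABL group), or BCR-ABL, the Src family kinase gene Blk and GFP (BCR-ABL-Blk group). At 14 days after transplantation, marrow cells were sorted as GFP+Lin-c-Kit+Sca-1+, a gate for stem and early progenitor cells, named HSCs in vector mice and LSCs with BCR-ABL. Each array is titled as a biological replicate, with the number of mice behind it unstated, and p-values measure only the spread between these arrays. The labels give neither the species nor the breakpoint of the transferred BCR-ABL, so whether the mouse Abl1 and Bcr probe sets read it was not tested.

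Values below are deposited log2 values after quantile normalization, and differences are on the log2 scale with a standard error (SE) or a 95% interval from limma. The array medians as deposited ran from 7.01 to 7.52, and the number of arrays limits the precision. Kit, which the sort selected, read between 10.33 and 10.92 on all 6 arrays and was at −0.39 in BCR-ABL against vector (limma adjusted p = 0.533); Ly6a, the gene of Sca-1, was not analysed here. Of 8 measured genes of stem and progenitor cells, 6 lay above 0 in that comparison (median 0.582), of which 1, Cd48, passed (0.47, limma adjusted p = 0.0493). Their mean level was 9.55 and 9.37 with vector and between 10 and 10.13 on the other 4 arrays. Blk, as the check of the transferred gene, read 7.14 and 6.95 in vector cells, 6.54 and 6.60 with BCR-ABL and 6.95 and 7.0 with BCR-ABL-Blk. BCR-ABL-Blk differed from BCR-ABL by 0.41 (SE 0.11, limma adjusted p = 0.999) and from vector by −0.07 (SE 0.11, limma adjusted p = 0.914). Blk, a kinase gene of B cells, was thus no higher with the added gene than with vector, and all 6 arrays lay below the median gene level of 7.50. Vector cells also differed in B cell marker level, given below, so the comparison with vector cannot single out the added gene. In the comparison with BCR-ABL, Blk values did not overlap and were higher with the added gene, without passing the test. Leaving out 1 array gave 0.38 to 0.438 for that difference. Whether the probe set reads the transferred Blk was not tested, and BCR-ABL-Blk is used below as the labels give it. Markers of other cells were also read, although the sort removed lineage-positive cells, and several lists were lower in both BCR-ABL groups. The mean level of 9 B cell markers was 10.31 and 8.84 with vector, 7.50 and 7.87 with BCR-ABL, and 8.16 and 7.78 with BCR-ABL-Blk. That of 10 monocyte and dendritic cell markers was 10.1 and 10.24, then 8.63 and 9.07, then 8.83 and 9.05. In bulk RNA, fewer cells of a type and less RNA per cell cannot be told apart.

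Abl1 encodes the mouse ABL kinase whose human counterpart gives the fusion its catalytic part. It read 9.67 and 9.97 in vector cells, 9.55 and 9.69 with BCR-ABL and 9.95 and 9.73 with BCR-ABL-Blk. Vector replicate 2 was the highest array, and the BCR-ABL arrays overlapped the vector arrays. BCR-ABL differed from vector by −0.20 (95% interval −0.56 to 0.17), BCR-ABL-Blk from BCR-ABL by 0.21 (−0.15 to 0.58), and BCR-ABL-Blk from vector by 0.02 (−0.35 to 0.38). As a ratio, the first interval runs from 0.677 to 1.12 times the vector level. The BCR-ABL-Blk pair exceeded the BCR-ABL pair without passing the test (limma adjusted p = 0.999).

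Abl2 encodes the other ABL family kinase, also called Arg, and was read at 8.25 and 7.96 in vector cells, 8.27 and 8.16 with BCR-ABL and 8.32 and 8.66 with BCR-ABL-Blk. Its highest values were both BCR-ABL-Blk arrays, which overlapped neither other group. Against vector the BCR-ABL-Blk difference was 0.39 (95% interval −0.02 to 0.79, limma adjusted p = 0.551). Against BCR-ABL it was 0.28 (−0.13 to 0.68), and BCR-ABL against vector gave 0.11 (−0.30 to 0.52). BCR-ABL-Blk replicate 2 alone stood above 8.32. Without it the differences were 0.216 against vector and 0.105 against BCR-ABL.

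Bcr encodes a GTPase-activating protein and kinase whose human counterpart gives the fusion its front part. Its values were 9.21 and 9.33 in vector cells, 9.20 and 9.07 with BCR-ABL and 9.26 and 9.34 with BCR-ABL-Blk. All 6 values fell within 0.268 of each other. The BCR-ABL mean was lower than the vector mean by 0.13 (difference −0.13, 95% interval −0.45 to 0.18), and their nearest arrays read 9.20 and 9.21. BCR-ABL-Blk lay 0.16 above BCR-ABL (−0.15 to 0.48) and 0.03 above vector (−0.29 to 0.35). The second Bcr probe set gave −0.14 (SE 0.15), 0.10 (SE 0.15) and −0.05 (SE 0.15) for the same comparisons, each with a limma adjusted p of at least 0.858. The probe sets thus differed in sign only for BCR-ABL-Blk against vector, where both values lay within 1 SE of 0.

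**Figure D1:**
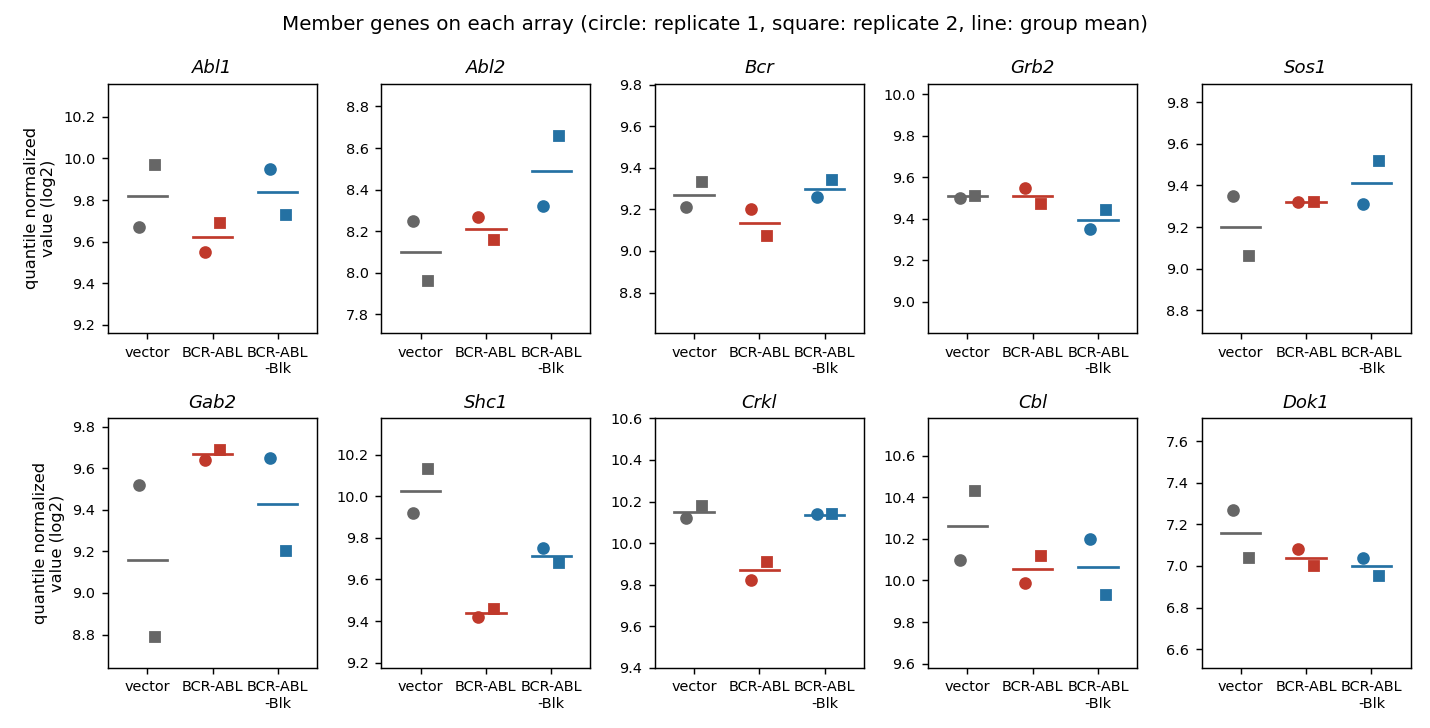
Quantile normalized log2 value (vertical axis, each panel spanning 1.2 log2 units) of the 10 genes on each of the 6 arrays, by group (horizontal axis); circles are replicate 1, squares replicate 2, lines group means of 2 arrays. Shc1 and Crkl are lowest on both BCR-ABL arrays, and the vector arrays of Gab2 are 0.73 apart.

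Grb2, the adaptor that links the fusion to RAS, was the steadiest of the 10 genes over the arrays, with a range of 0.197. It read 9.50 and 9.51 in vector cells, 9.55 and 9.47 with BCR-ABL and 9.35 and 9.44 with BCR-ABL-Blk. BCR-ABL and vector means were 9.51 each, and the 95% interval of their difference was −0.30 to 0.30, or 0.815 to 1.23 times the vector level. Both BCR-ABL-Blk arrays were the lowest, with a difference of −0.11 against each of the other groups (limma adjusted p = 0.999 against BCR-ABL and 0.873 against vector).

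Sos1, the exchange factor that Grb2 carries to RAS, read 9.35 and 9.06 in vector, 9.32 on both BCR-ABL arrays, and 9.31 and 9.52 in BCR-ABL-Blk cells. The groups overlapped in every comparison. The differences were 0.12 (95% interval −0.25 to 0.48) for BCR-ABL against vector, 0.09 (−0.27 to 0.46) for BCR-ABL-Blk against BCR-ABL and 0.21 (−0.15 to 0.57) for BCR-ABL-Blk against vector. None passed (limma adjusted p from 0.766 to 0.999).

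Gab2, the scaffold that couples Grb2 to PI3K, varied most over the arrays. It read 9.52 and 8.79 in vector cells, 9.64 and 9.69 with BCR-ABL and 9.65 and 9.20 with BCR-ABL-Blk. Vector replicate 2 was the lowest by far, and BCR-ABL-Blk replicate 2 the next. Both BCR-ABL arrays lay above both vector arrays, with means of 9.67 ± 0.03 and 9.16 ± 0.52 (SD, n = 2 each). The difference of 0.51 (95% interval −0.09 to 1.11) did not pass (limma adjusted p = 0.641) and was smaller than the 0.73 between the vector replicates. Leaving out vector replicate 2 gave 0.15, and leaving out vector replicate 1 gave 0.88. BCR-ABL-Blk differed from BCR-ABL by −0.24 (−0.84 to 0.35) and from vector by 0.27 (−0.33 to 0.87). The last of these turned to −0.10 without vector replicate 2. Among all other genes, the profiles over the 6 arrays closest to that of Gab2, each centred on its own mean, were those of Fez2, Cep112 and Cep162. Their root mean square differences from it were 0.0435, 0.0481 and 0.0556.

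Shc1, an adaptor that binds Grb2 once phosphorylated, gave the clearest separation. It read 9.92 and 10.13 in vector cells, 9.42 and 9.46 with BCR-ABL and 9.75 and 9.68 with BCR-ABL-Blk. No groups overlapped: both BCR-ABL arrays were lowest, both BCR-ABL-Blk arrays intermediate and both vector arrays highest. The vector mean was 10.02 ± 0.15, the BCR-ABL mean 9.44 ± 0.03 and the BCR-ABL-Blk mean 9.71 ± 0.06 (SD, n = 2 each). BCR-ABL cells carried 0.666 times the vector signal (95% interval 0.539 to 0.823), a difference of −0.59 (SE 0.13, unadjusted p = 0.00248), short of the threshold over all genes (limma adjusted p = 0.194). By unadjusted p it ranked 255th of 19938 genes. BCR-ABL-Blk lay 0.28 above BCR-ABL (SE 0.13, 95% interval −0.03 to 0.58, limma adjusted p = 0.999) and 0.31 below vector (difference −0.31, SE 0.13, limma adjusted p = 0.519). The BCR-ABL arrays enter the first and second of these comparisons alike.

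On the deposited values, with no added normalization between arrays, Shc1 passed as lower with BCR-ABL than with vector (difference −0.645, limma adjusted p = 0.0394). That fit gave every gene the variance of the intensity trend, with infinite prior degrees of freedom against 4.4 after quantile normalization. Over its 13 alternatives the difference stayed between −0.69 and −0.48 and the limma adjusted p between 0.0394 and 0.765. In the same comparison 10 of 10 monocyte and dendritic cell markers lay below 0 (median −1.3), of which 2 passed, and 8 of 9 B cell markers (median −1.74), of which 0 passed. Their part in the Shc1 difference was not tested. The 3 genes with profiles closest to Shc1 over the 6 arrays were Csrp1, Akap5 and 1700001L05Rik, at root mean square differences of 0.0508, 0.054 and 0.0627. Csrp1, a LIM domain protein gene, read 10.49 and 10.75 in vector cells, 9.98 and 10.13 with BCR-ABL and 10.45 and 10.35 with BCR-ABL-Blk.

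Crkl, the CRK family adaptor, read 10.12 and 10.18 in vector, 9.82 and 9.91 in BCR-ABL, and 10.14 on both BCR-ABL-Blk arrays. The BCR-ABL arrays stood below all 4 others, which lay between 10.12 and 10.18. BCR-ABL was at 0.824 times the vector level (95% interval 0.686 to 0.989, difference −0.28, SE 0.11), short of the threshold over all genes (limma adjusted p = 0.559). BCR-ABL-Blk lay 0.27 above BCR-ABL (SE 0.11, limma adjusted p = 0.999) and differed from vector by −0.01 (95% interval −0.28 to 0.25). Under median centring of the arrays the first difference was −0.175 and the second 0.185.

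Cbl, the ubiquitin ligase that marks activated kinases for degradation, read 10.10 and 10.43 in vector cells, 9.99 and 10.12 with BCR-ABL and 10.20 and 9.93 with BCR-ABL-Blk. All groups overlapped. BCR-ABL and BCR-ABL-Blk differed from vector by −0.21 (95% interval −0.57 to 0.16) and −0.20 (−0.57 to 0.17), and from each other by 0.01 (−0.36 to 0.38). Without vector replicate 2 the differences from vector were −0.04 and −0.03.

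Dok1, the docking protein that restrains RAS, read 7.27 and 7.04 in vector cells, 7.08 and 7.0 with BCR-ABL and 7.04 and 6.95 with BCR-ABL-Blk. Its mean was below the median gene level of 7.50; with no measure of background, a difference may be understated. BCR-ABL differed from vector by −0.12 (95% interval −0.40 to 0.16), BCR-ABL-Blk from BCR-ABL by −0.04 (−0.32 to 0.24) and BCR-ABL-Blk from vector by −0.16 (−0.44 to 0.12). The last groups did not overlap, but their nearest arrays both rounded to 7.04.

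Counted together, 0 of 10 members passed in BCR-ABL against vector, where 29 of 19938 genes (0.145%) passed by limma at an adjusted p under 0.05. For BCR-ABL-Blk against BCR-ABL it was 0 of 10 against 0%, and for BCR-ABL-Blk against vector 0 of 10 against 0.140%. At an unadjusted p under 0.05 there were 2 members (Shc1 and Crkl) in the first comparison, where 8.64% of all genes lie; 1 (Crkl) in the second, against 3.96%; and 1 (Shc1) in the third, against 9.42%. Groups did not overlap for 4 of 10 members in BCR-ABL against vector (37.0% of all genes), for 6 of 10 in BCR-ABL-Blk against BCR-ABL (34.0%), and for 4 of 10 in BCR-ABL-Blk against vector (37.2%). Of the 6, the BCR-ABL-Blk arrays were higher for 5, Abl1, Abl2, Bcr, Crkl and Shc1, where 14.0% of all genes lie, and lower for Grb2, where 20.0% lie. The median member difference was −0.13, 0.13 and 0.002 in the 3 comparisons, beside 0.02, −0.01 and 0.004 for all genes.

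The intervals set limits on what these arrays could miss for each gene taken singly. In BCR-ABL against vector, the 95% interval lay within a 2-fold change either way for 9 of 10 members, Gab2 being the exception, as for 94.6% of all genes. It lay within 1.5-fold for 8 of 10, the others being Gab2 and Shc1, and for 78.3% of all genes. In BCR-ABL-Blk against BCR-ABL all 10 intervals lay within 2-fold, and 8 within 1.5-fold, without Abl2 and Gab2. The shares of all genes there were 97.1% and 82.5%. In BCR-ABL-Blk against vector all 10 lay within 2-fold, and 7 within 1.5-fold, without Abl2, Gab2 and Shc1. Of all genes, 94.5% and 77.8% did. The replicate gap of the members was widest in vector cells, with a median of 0.258 against 0.145 over all genes. It was 0.0858 against 0.118 in BCR-ABL cells and 0.148 against 0.12 in BCR-ABL-Blk cells.

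**Figure D2:**
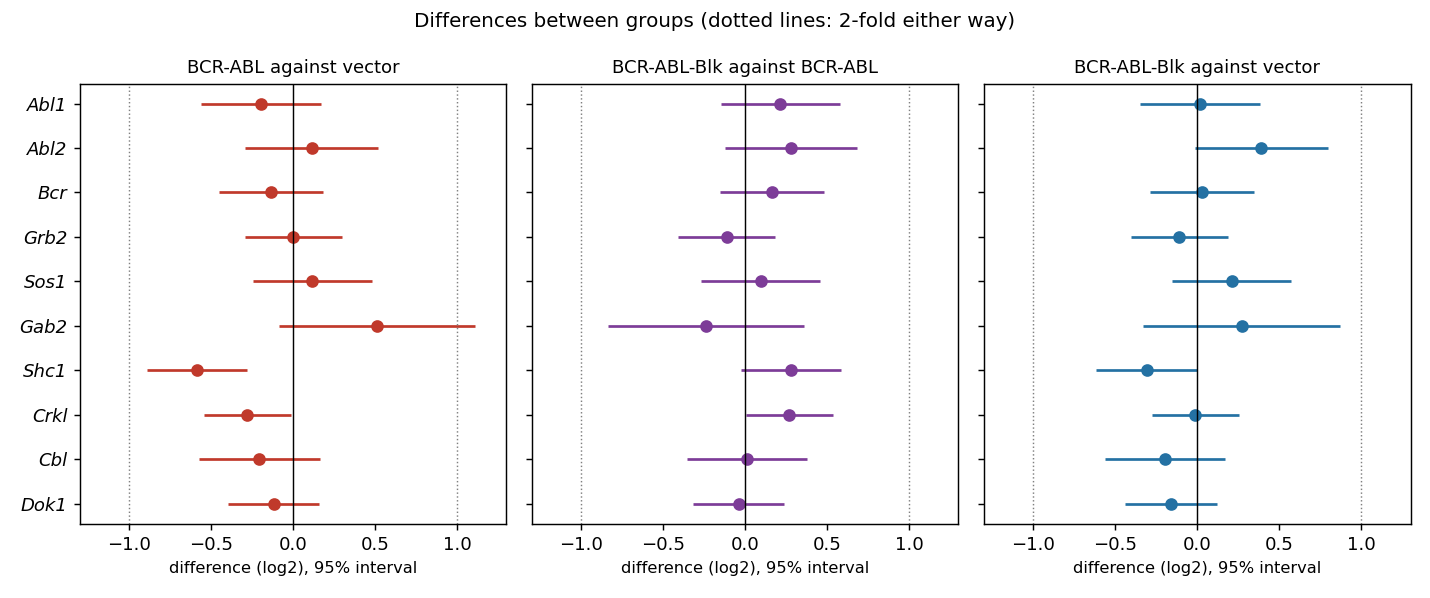
Difference between groups on the log2 scale (horizontal axis) with its 95% interval from limma, for the 10 genes (vertical axis) in the 3 comparisons; dotted lines mark 2-fold either way. The Shc1 interval in BCR-ABL against vector, −0.89 to −0.28, is the farthest from 0, and only that of Gab2 crosses a 2-fold line.

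The closest relatives of the members were examined next: 18 measured genes of the Abr, Grap, Gab, Crk, Sos, Cbl, Shc and Dok families. None passed in any of the 3 comparisons (limma, adjusted p under 0.05), and 1, 0 and 3 did at an unadjusted p under 0.05, where 8.64%, 3.96% and 9.42% of all genes lie. Grap2, the GRB2-related adaptor of T cells and platelets also called Gads, came nearest. It read 7.90 and 8.03 in vector cells, 6.89 and 7.16 with BCR-ABL and 7.26 and 7.36 with BCR-ABL-Blk. The BCR-ABL difference from vector was −0.94 (SE 0.13, limma adjusted p = 0.0583), which passed on deposited values (−1.07, limma adjusted p = 0.0081). With 1 array left out it ran from −1.08 to −0.8. Crk, the relative of Crkl, differed by 0.32 in the same comparison (SE 0.18, limma adjusted p = 0.676), opposite in sign to Crkl. Leaving out vector replicate 2 gave 0.0942 for Crk, and leaving out vector replicate 1 gave 0.553. Dok3, a Dok family brake of myeloid and B cells, differed by −0.36 (SE 0.15, limma adjusted p = 0.586) in BCR-ABL and by −0.41 (SE 0.15, limma adjusted p = 0.449) in BCR-ABL-Blk cells against vector. Dok2, of the same family, lay the other way in both, at 0.24 (SE 0.144, limma adjusted p = 0.707) and 0.36 (SE 0.144, limma adjusted p = 0.488).

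Around the members, 5 lists of pathway genes held 117 entries, of which 106 were measured. The lists include the 18 relatives above. They were chosen with earlier results of these data known, so their shares beside those of all genes are no independent test. In BCR-ABL against vector 1 of the 106 passed, in BCR-ABL-Blk against BCR-ABL 0, and in BCR-ABL-Blk against vector 1, both times Enah, as a rise. At an unadjusted p under 0.05 these comparisons held 16, 3 and 15 of them, or 15.1%, 2.83% and 14.2%, beside 8.64%, 3.96% and 9.42% of all genes. The counts at an unadjusted p given for each list below stand beside those same shares of all genes. The median over the 106 genes was 0.02, 0.02 and 0.05, beside 0.02, −0.01 and 0.004 over all genes.

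Of 19 measured partners of ABL and BCR, 5, 0 and 5 were at an unadjusted p under 0.05 in the 3 comparisons. Enah (Mena), an actin regulator related to an ABL substrate of the fly, rose from 7.54 and 8.12 in vector to 10.70 and 10.56 with BCR-ABL and 10.37 and 9.92 with BCR-ABL-Blk. The vector arrays stood far below all others. The rise was 6.96-fold in BCR-ABL (log2 difference 2.80, SE 0.23, limma adjusted p = 0.0141) and 4.96-fold in BCR-ABL-Blk cells (2.31, SE 0.23, limma adjusted p = 0.0312). The first call was lost without BCR-ABL replicate 1 (2.73, limma adjusted p = 0.151) or replicate 2 (2.87, limma adjusted p = 0.179). The second was lost without BCR-ABL replicate 1 (2.31, limma adjusted p = 0.096), BCR-ABL replicate 2 (2.31, 0.101) or BCR-ABL-Blk replicate 1 (2.09, 0.125). It was also lost without an intensity trend (limma adjusted p = 0.0616) and with only the 4 arrays compared (0.0964). BCR-ABL-Blk differed from BCR-ABL by −0.49 (SE 0.23, limma adjusted p = 0.999). Fyn, a Src family kinase, was at 0.71 (SE 0.16, limma adjusted p = 0.196) and 0.89 (SE 0.16, limma adjusted p = 0.101) against vector. Leaving out 1 array gave 0.566 to 0.854 and 0.731 to 1.05 for the 2 Fyn differences. Nck2, an SH2 and SH3 adaptor, was at −0.24 (SE 0.13) in BCR-ABL-Blk against BCR-ABL.

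In the list of 29 measured GRB2, SHC and RAS-MAPK genes none passed (limma, 3 comparisons), with 7, 3 and 3 at an unadjusted p under 0.05. After Grap2 came Rasgrp2, a RAP and RAS exchange factor of platelets, at −0.66 in BCR-ABL against vector (SE 0.15, limma adjusted p = 0.197). With 1 array left out the Rasgrp2 difference ran from −0.812 to −0.499. Between BCR-ABL-Blk and BCR-ABL, Spry2, an inhibitor of RAS-MAPK signalling, was at −0.49 (SE 0.16) and Rasa2, a RAS GTPase-activating protein, at −0.38 (SE 0.16), both with a limma adjusted p of 0.999. Spry2 read 8.03 and 8.33 in BCR-ABL against 7.81 and 7.57 in BCR-ABL-Blk cells. Spred1, a related inhibitor, was at 0.36 (SE 0.13, limma adjusted p = 0.43) in BCR-ABL-Blk against vector.

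Of 23 measured GAB and PI3K-AKT genes none passed (limma), and 2, 0 and 3 did at an unadjusted p under 0.05. Pik3ap1, an adaptor that links B cell receptors to PI3K, was at −0.56 (SE 0.20) in BCR-ABL and −0.71 (SE 0.20) in BCR-ABL-Blk cells against vector, with limma adjusted p of 0.464 and 0.292. With 1 array left out the first ran from −0.847 to −0.275 and the second from −0.993 to −0.422. Inpp5d (SHIP1), a lipid phosphatase that opposes PI3K, was at −0.28 (SE 0.12) in BCR-ABL against vector. Pik3cb, a catalytic subunit, was at −0.52 (SE 0.14) in BCR-ABL-Blk against vector and −0.25 (SE 0.14) against BCR-ABL. Akt2 was at 0.23 (SE 0.13) in BCR-ABL-Blk against BCR-ABL.

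Of 15 measured CRK, CAS and RAP1 genes none passed (limma), with 1, 0 and 1 at an unadjusted p under 0.05, both times Dock1, an exchange factor for RAC that acts behind CRK. Dock1 read 7.42 and 7.55 in vector cells, 8.47 and 8.26 with BCR-ABL and 8.47 and 8.48 with BCR-ABL-Blk. Its differences from vector were 0.88 (SE 0.14, limma adjusted p = 0.0768) and 0.99 (SE 0.14, limma adjusted p = 0.0568). Leaving out 1 array gave 0.771 to 0.982 for the first and 0.93 to 1.06 for the second. Elmo1, the partner of Dock1, was at 0.27 (SE 0.13) in BCR-ABL-Blk against vector. Rac2, the blood cell RAC, was at 0.31 (SE 0.13) and Efs, a CAS family scaffold, at 0.17 (SE 0.11) in BCR-ABL-Blk against BCR-ABL.

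Of 20 CBL, DOK and LNK genes, all measured, none passed (limma), and 1, 0 and 3 did at an unadjusted p under 0.05. Sla2, an adaptor that recruits CBL to receptors, was at 1.06 (SE 0.24, limma adjusted p = 0.196) in BCR-ABL and 0.85 (SE 0.24, limma adjusted p = 0.291) in BCR-ABL-Blk cells against vector. It read 7.58 and 7.25 in vector and between 8.06 and 8.78 on the other 4 arrays. In BCR-ABL-Blk against BCR-ABL, Dok6 was at 0.21 (SE 0.13) and Sh2b1, an adaptor of JAK2, at 0.30 (SE 0.20).

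**Figure D3:**
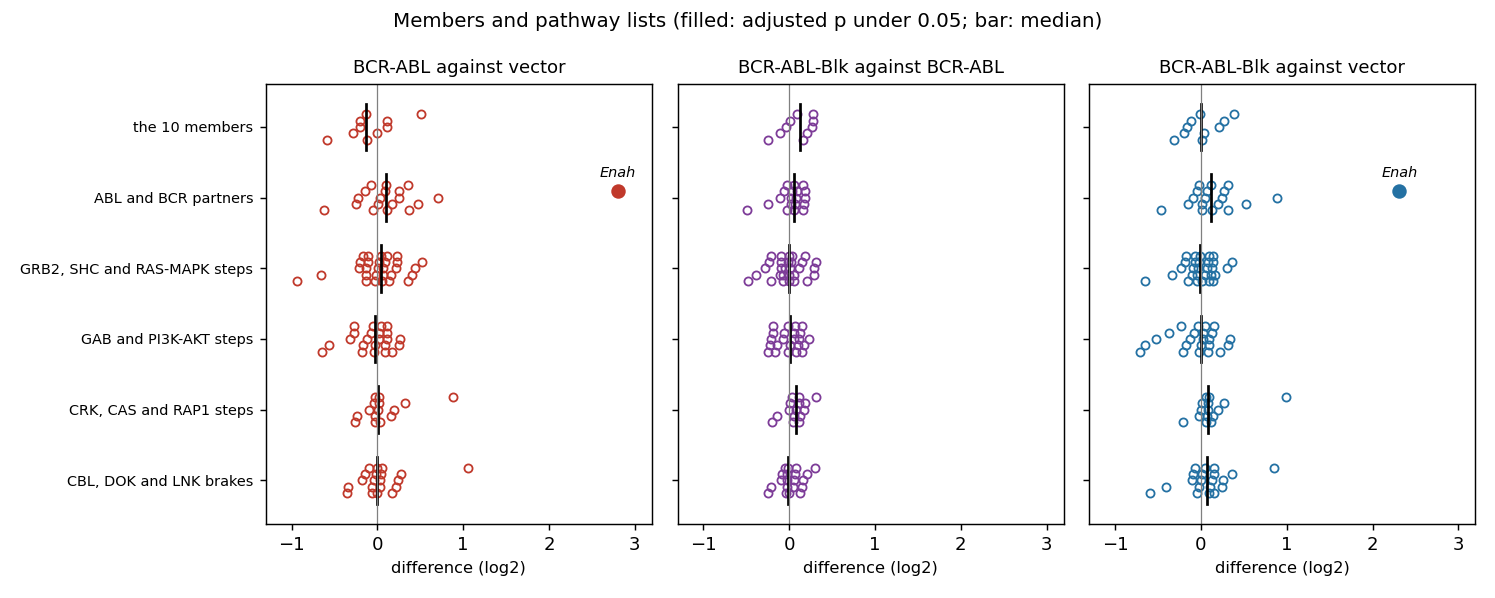
Difference between groups on the log2 scale (horizontal axis) for the 10 members and the measured genes of 5 pathway lists (vertical axis), in the 3 comparisons; each circle is a gene, filled where the limma adjusted p was under 0.05, and bars are medians. Enah is the filled point, at 2.80 and 2.31 against vector, and the members lie between −0.59 and 0.51.

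Without added normalization between arrays the median of all genes was −0.11 for BCR-ABL against vector. It was 0.255 for BCR-ABL-Blk against BCR-ABL and 0.15 for BCR-ABL-Blk against vector. In BCR-ABL-Blk against BCR-ABL, on that scale, Abl2 was at 0.575, Shc1 at 0.52, Crkl at 0.485 and Abl1 at 0.445, to be read against the 0.255. Less that median they were at 0.32, 0.265, 0.23 and 0.19. The pathway genes that passed on that scale beside Enah were Foxo1, Fyn, Grap2, Rasgrp2 and Sla2 in BCR-ABL against vector, Rac2 in BCR-ABL-Blk against BCR-ABL, and Abi2, Akt2, Dock1, Fyn, Ptpn12 and Sla2 in BCR-ABL-Blk against vector. Foxo1, Abi2 and Ptpn12 are named here only because they passed. Of 30 member differences (10 genes, 3 comparisons), 20 kept their sign under every alternative run when deposited values were read less the median of all genes. The other 10 were differences of at most 0.27. Leaving out 1 array moved 25 of the 30 by over 1.5 times or turned their sign; the other 5 were all 3 differences of Shc1, and those of BCR-ABL against vector and BCR-ABL-Blk against BCR-ABL for Crkl.

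**Figure D4:**
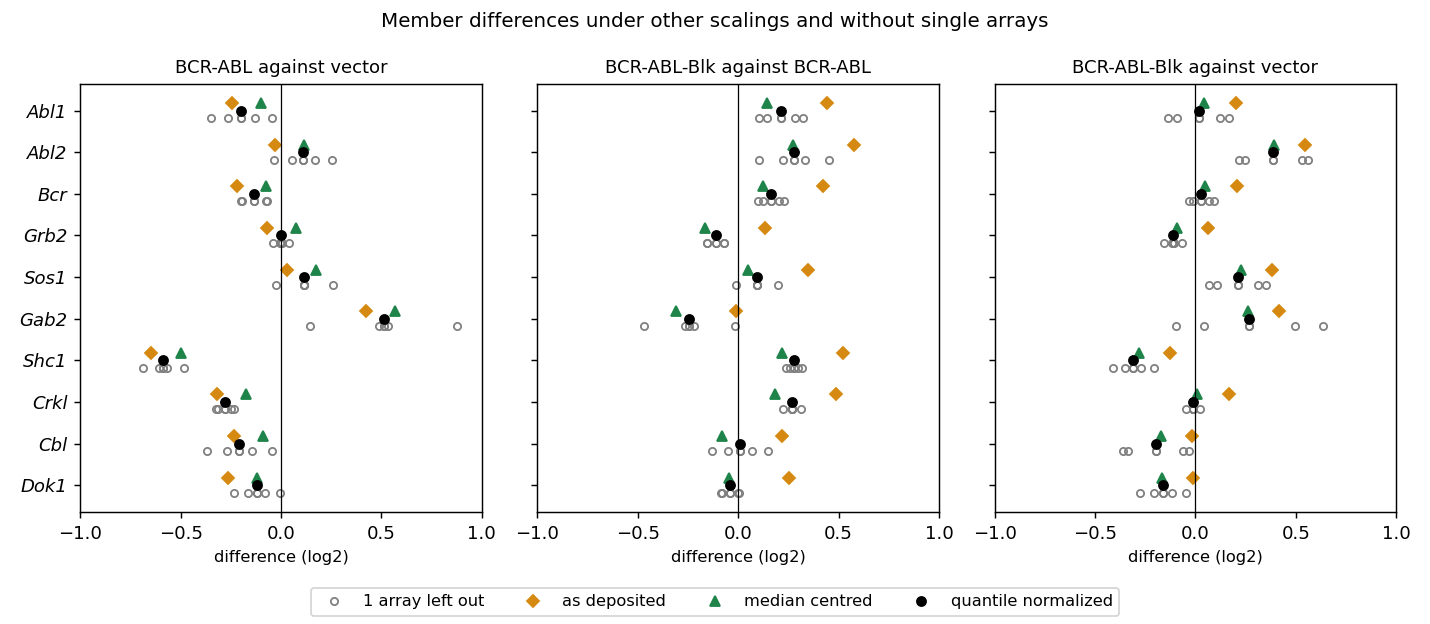
Difference between groups on the log2 scale (horizontal axis) for the 10 genes (vertical axis) with quantile normalization (black), on deposited values (orange), with median centring (green) and with 1 array left out (open grey), in the 3 comparisons. Shc1 stays below 0 in BCR-ABL against vector, between −0.69 and −0.48, while the orange points of BCR-ABL-Blk against BCR-ABL lie to the right of the black ones.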

How the data were processed

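RNA of sorted marrow cells was measured on 6 arrays, 2 per group, grouped by the sample titles. The deposited table holds log2 values of 35557 probe sets, which the authors made with Affymetrix Expression Console 1.1 and RMA, per the submitters' processing notes. Its options and genome build were not given in the sources used here; coordinates are left out. Since array medians differed, values were quantile normalized, which removes shifts of whole arrays. Symbols came from the platform annotation, which can be old: 21789 probe sets had 1 symbol, 1621 several and 12147 none listed here. The probe set with the highest mean over the arrays was kept for each of 19938 genes. Groups were compared with limma 3.58.1 in R 4.3.3 (lmFit, eBayes with a trend) over all 6 arrays, with 3 residual and 4.4 prior degrees of freedom. P-values are two-sided and Benjamini-Hochberg adjusted over all genes. The 10 members and the 5 pathway lists were chosen with earlier results of these data known. Named list genes are those called, the 2 with the smallest p per list and comparison, and Dok2, given beside Dok3. Foxo1, Abi2 and Ptpn12 are also named, only because they passed on deposited values. An exact permutation test of 2 against 2 arrays cannot reach 0.05 and was not used. The fit was tested on simulated data. Alternatives were other scalings, no trend, a replicate block, a level filter, all probe sets, 4 arrays, and leaving out each array. Figures used Python 3.11.15 and matplotlib 3.10.9.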

Additional observations from a re-analysis of the deposited data

How the results depend on the processing

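Of 387 alternative values of the member differences, 1 passed the threshold, that of Shc1 on deposited values. Without added normalization between arrays, limma called 1 member, 401 genes and 6 pathway genes in BCR-ABL against vector. In BCR-ABL-Blk against BCR-ABL it called 0, 79 and 1, and in BCR-ABL-Blk against vector 0, 732 and 7. On those deposited values the prior degrees of freedom were infinite. Counts over all genes, in the order BCR-ABL against vector, BCR-ABL-Blk against BCR-ABL and BCR-ABL-Blk against vector, were 29, 0 and 28 as reported. They were 15, 0 and 4 without a trend, and 53, 0 and 71 over genes at or above the median level, a filter that leaves out Dok1. With only the 4 arrays compared BCR-ABL-Blk against vector gave 4, and with every probe set 13. Pathway genes called in that comparison were 0 without a trend, 0 with the 4 arrays and 2 with the level filter. Leaving out 1 array gave 1 to 507, 0 to 2 and 4 to 560 genes, 0 to 4, 0 and 0 to 4 pathway genes, and 0 members throughout. A lone array was assumed to vary like the other groups.

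With the replicate number as a block, 29, 0 and 23 genes and 0 members were called. Differences between replicates 1 and 2 correlated over genes at −0.0618, 0.0334 and 0.0841 between groups. With 2 arrays per group, these values cannot exclude a batch shared by replicates of the same number.

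Signs turned as follows. On deposited values Abl2 (−0.03) and Grb2 (−0.07) turned in BCR-ABL against vector; Grb2 (0.135), Dok1 (0.255), Nck2 (0.04) and Pik3cb (0.01) in BCR-ABL-Blk against BCR-ABL; and Grb2 (0.065) and Crkl (0.165) in BCR-ABL-Blk against vector. On that scale the median of all genes was −0.11, 0.255 and 0.15 in the 3 comparisons. Less it, Grb2 was at 0.04, −0.12 and −0.085, Abl2 at 0.08, Nck2 at −0.215 and Pik3cb at −0.245. Those had their reported sign, but Dok1, at 0, and Crkl, at 0.015, did not. The reported Grb2 difference in BCR-ABL against vector, 0.000833, was too small for its sign to be read. With median centring Cbl (−0.08) turned in BCR-ABL-Blk against BCR-ABL, and Crkl (0.01) turned against vector. With 1 array left out, BCR-ABL against vector ran from −0.0333 to 0.255 for Abl2, −0.0392 to 0.0408 for Grb2 and −0.0258 to 0.259 for Sos1. BCR-ABL-Blk against BCR-ABL ran from −0.0108 to 0.198 for Sos1, −0.128 to 0.147 for Cbl and −0.0842 to 0.0042 for Dok1. BCR-ABL-Blk against vector ran from −0.137 to 0.168 for Abl1, −0.0317 to 0.0917 for Bcr, −0.0958 to 0.634 for Gab2 and −0.045 to 0.0217 for Crkl. The cause of the turns on deposited values and under median centring was not tested. Those with 1 array left out rest on fewer arrays. Signal over background was not measured, which limits low values such as those of Dok1.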
